A study of Homo sapiens with 15 samples.

Results

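The 10 genes described here encode chaperones of the endoplasmic reticulum (ER) and other standard targets of the transcription factors XBP1 and ATF6. They are HSPA5, HSP90B1, DNAJB9, DNAJC3, PDIA4, CALR, HYOU1, SDF2L1, XBP1 and HERPUD1. They were picked by gene name from a deposited table of 58735 genes, each name matched 1 row, and all 10 are annotated as protein-coding and were tested. The cells were A549, a human lung adenocarcinoma line grown in culture. Each of 5 groups had 3 sequenced libraries, taken after 24 h. The DMSO group received the solvent alone, at the volume used for the particles, and the groups CDSUM, CDWIN, CQSUM and CQWIN each received fine particulate matter (PM2.5) of that code at 100 µg/mL. The codes are used as the labels give them. Whether the 3 libraries of a group stem from separate cultures is not in the labels, so p-values reflect only how these libraries vary, which may be technical.

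Proteins that enter the ER are folded by Hsp70 and Hsp90 class chaperones, by lectins and by disulfide isomerases. When unfolded proteins accumulate, the sensors IRE1 (gene ERN1), ATF6 and PERK (gene EIF2AK3) start the unfolded protein response. IRE1 splices XBP1 mRNA so that it encodes an active transcription factor, ATF6 is cut to release its transcription factor domain, and PERK slows translation and favours the translation of ATF4. XBP1 and ATF6 raise the transcription of chaperones and of the degradation machinery, which is why the 10 genes are widely used to read this response. Secretory lung epithelial cells depend on it because of their load of secreted protein.

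The DNA element through which ATF6 and XBP1 act is known as the ER stress response element, and it was searched for in RefSeq promoter sequences on GRCh38.p14. The windows below are the matches in the genes described here, shown because the element links several of these genes to ATF6 and XBP1. The genes were picked by name as standard targets of XBP1 and ATF6, so matches in their promoters were likely beforehand. The matches are a description and not a test. Capitals mark the motif, each sequence is on the strand of its gene, and 12 bases flank the motif on each side. The ER stress response element was searched as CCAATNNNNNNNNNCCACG, and its shorter form, ERSE-II, as ATTGGNCCACG, both on both strands.
HSPA5, chr9:125241379-125241421, minus strand: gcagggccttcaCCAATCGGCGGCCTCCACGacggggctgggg
HSP90B1, chr12:103930204-103930246, plus strand: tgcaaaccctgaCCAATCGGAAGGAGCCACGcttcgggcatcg
HSP90B1, chr12:103930309-103930351, plus strand, motif reversed: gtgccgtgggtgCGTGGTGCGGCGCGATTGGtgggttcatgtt
CALR, chr19:12938372-12938414, plus strand, motif reversed: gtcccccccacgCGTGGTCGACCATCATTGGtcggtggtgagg
XBP1, chr22:28800591-28800633, minus strand: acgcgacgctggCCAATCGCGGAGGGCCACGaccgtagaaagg
HYOU1, ERSE-II, chr11:119057368-119057402, minus strand, motif reversed: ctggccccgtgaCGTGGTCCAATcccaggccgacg
HYOU1, ERSE-II, chr11:119057262-119057296, minus strand, motif reversed: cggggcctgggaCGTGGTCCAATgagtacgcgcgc
SDF2L1, ERSE-II, chr22:21642102-21642136, plus strand, motif reversed: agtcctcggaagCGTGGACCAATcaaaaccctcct
HERPUD1, ERSE-II, chr16:56932013-56932047, plus strand: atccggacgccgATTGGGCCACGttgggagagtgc

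The full element was present in 27 of 35116 RefSeq promoters of 300 bases, which is 0.0769%, and 4 of those genes are described here. ERSE-II was present in 19 of 35116 promoters, 0.0541%, and 3 of those genes are described here. The core of another element, the UPR element, TGACGTGG, was found in 256 promoters, 0.729%, and among the 10 genes in HYOU1, where it overlaps the first ERSE-II window. All 10 genes had at least 1 RefSeq promoter, 12 in all, since PDIA4 and XBP1 have 2 each. No match was found in DNAJB9, DNAJC3 or PDIA4, which says only that these letters are not in those windows. The genes with a full element did not move alike in the counts below, since HSPA5, HSP90B1 and CALR were called lower in CDSUM and XBP1 was not called.

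Libraries held 17583532 to 19216323 counted reads, and the 10 genes together took 0.139% to 0.258% of them. In single libraries CALR had 10859 to 18915 reads, and the lowest count of any of the 10 was 85 reads, for DNAJC3. Levels are given as CPM, counts scaled to a common library size by TMM, a normalization that assumes most genes are unchanged between libraries. The log2 fold changes come from edgeR's quasi-likelihood test over 15565 genes with their standard error (SE), and a gene is called where the p adjusted by Benjamini-Hochberg is under 0.05. The labels call the cells type II alveolar epithelial cells. Of 9 markers of that type only 2 were tested, SFTPA1 and SFTPA2 were at 0 in all 15 libraries, and the summed marker level was 75.9 to 87.7 CPM in DMSO and 42.1 to 68.3 CPM in the PM2.5 groups. Markers of epithelial cells summed to 8880 CPM or more in DMSO and to 4420 to 6000 CPM in the PM2.5 groups, while of these 5 genes 2 were called higher and 3 lower in CDSUM, CDWIN and CQSUM, and 1 higher and 2 lower in CQWIN. Of 3 fibroblast markers 1 was tested, with summed levels of 8.3 to 14.5 CPM in DMSO and 2.71 to 9.61 CPM in the PM2.5 groups. The leukocyte marker PTPRC was at 0 in every library, and its sum with CD68 reached at most 0.173 CPM. The endothelial markers PECAM1 and VWF summed to 0 CPM in DMSO and to 0.0579 to 1.19 CPM in the PM2.5 groups. Of the leukocyte and endothelial markers 0 were tested. The part of these shifts in the results below was not tested.

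In every exposure more of the 10 genes were called lower than DMSO than higher, and the 1 gene called higher was DNAJB9 each time. In CDSUM, 6 of the 10 genes were called lower than in DMSO and 1 higher, while 31.2% of all tested genes were called lower and 15.3% higher. In CDWIN, 4 were lower and 1 higher, against 23.3% and 18.4% of all genes. In CQSUM, 3 were lower and 1 higher, against 18.8% and 13.7%. In CQWIN, 2 were lower and 1 higher, against 15.8% and 11.6%. The shares called lower in CQSUM and CQWIN were near those of all genes, and 1 gene of 10 called higher is too few to set apart from the shares called higher. The RNA came from whole cultures, so a change in the mix of cells and a change of RNA per cell cannot be told apart. The median log2 fold change of the 10 genes was -0.53, -0.23, -0.12 and -0.01 in CDSUM, CDWIN, CQSUM and CQWIN, and the median of all tested genes was -0.25, -0.11, -0.00 and 0.02. PDIA4 and HYOU1 were called lower in all 4 comparisons, as were 11.7% of all genes, and DNAJB9 was called higher in all 4, as were 5.93% of all genes. SDF2L1, XBP1 and HERPUD1 were called in none of the 4, as were 38.8% of all genes. The 4 comparisons share their DMSO libraries.

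**Figure D1:**
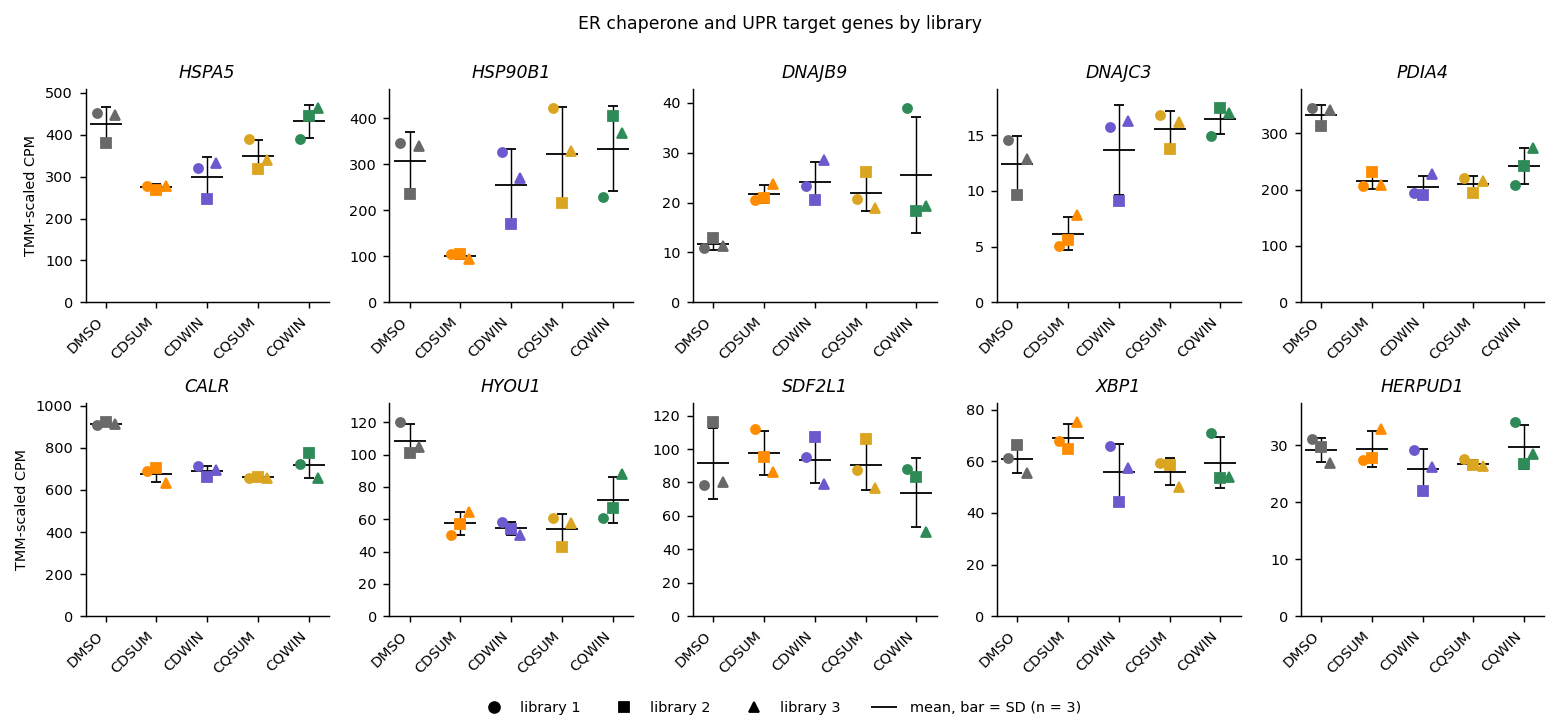
TMM-scaled CPM of each gene in each of the 15 libraries, grouped by exposure, with 1 symbol per library and the group mean with its SD (n = 3). The 3 CDSUM libraries of HSP90B1 lie between 93.8 and 105 CPM, under all other libraries, and the 3 DMSO libraries of DNAJB9 lie between 10.8 and 13.0 CPM, under all exposed libraries.

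The zero point of the CDSUM comparison depends on the scaling, which bears on the smaller changes. The median of all genes in CDSUM over DMSO moved from -0.25 with TMM to -0.10 with DESeq2 size factors, to -0.04 when CQWIN 2 or CQWIN 3 was left out, and to -0.03 when the DMSO and CDSUM libraries were scaled alone. Relative to that median, the genes kept nearly the same place: HSPA5 and PDIA4 each lay at -0.38 with TMM, and at -0.37 and -0.38 with DESeq2 size factors. CALR lay at -0.19 and XBP1 at 0.43 relative to the median under both scalings. HSP90B1, DNAJC3 and HYOU1 were called lower in CDSUM, and DNAJB9 higher, under each of these scalings.

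HSPA5, at chr9:125234853-125241330 on the minus strand, encodes BiP, the ER Hsp70 that binds unfolded chains and holds the 3 stress sensors inactive. Its level was 452, 380 and 447 CPM in DMSO, 279, 269 and 279 CPM in CDSUM, and 321, 246 and 333 CPM in CDWIN. All 6 of these exposed libraries lay below the lowest DMSO library. The CQSUM libraries, at 391, 319 and 341 CPM, and the CQWIN libraries, at 389, 444 and 463 CPM, overlapped the DMSO range. HSPA5 was lower in CDSUM by a log2 fold change of -0.63 ± 0.15 (SE; 276 ± 5.63 against 426 ± 40.2 CPM, SD, n = 3; edgeR adjusted p = 0.00293), and in CDWIN by -0.51 ± 0.15 (edgeR adjusted p = 0.0113). In CQSUM the value was -0.28 ± 0.15 (edgeR adjusted p = 0.155) and in CQWIN 0.02 ± 0.15 (edgeR adjusted p = 0.938). HSPA5 was not called higher than DMSO in any exposure. The CDWIN call was lost without DMSO 1 (-0.46, edgeR adjusted p = 0.0507), without CQWIN 2 (-0.35, edgeR adjusted p = 0.0837) and without CQWIN 3 (-0.35, edgeR adjusted p = 0.0505). The CDSUM value of HSPA5 became -0.41 without CQWIN 2 or CQWIN 3 and was still called, and it was also -0.41 with no filter on low counts, where the call was lost (edgeR adjusted p = 0.109). With the GC trend alone removed HSPA5 was called lower in CQSUM (-0.46, edgeR adjusted p = 0.0295).

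HSP90B1, at chr12:103930107-103953645 on the plus strand, encodes the ER paralog of cytosolic Hsp90, which folds a limited set of clients such as integrins and toll-like receptors. The DMSO libraries had 347, 236 and 340 CPM, and the CDSUM libraries had 105, 105 and 93.8 CPM. CDWIN had 326, 171 and 269 CPM, CQSUM 421, 215 and 328 CPM, and CQWIN 229, 404 and 368 CPM. Every CDSUM library was below every other library, while the other 4 groups overlapped and each spread widely. HSP90B1 was 3.03-fold lower in CDSUM than in DMSO (log2 fold change -1.60 ± 0.26, SE, n = 3; edgeR adjusted p = 0.000384). The corresponding values were -0.27 ± 0.26 in CDWIN (edgeR adjusted p = 0.418), 0.06 ± 0.26 in CQSUM (edgeR adjusted p = 0.876) and 0.12 ± 0.26 in CQWIN (edgeR adjusted p = 0.776). HSP90B1 had the widest spread within groups of the 10 genes, a pooled SD of 0.392 on the log2 CPM scale against 0.0695 for CALR. Its exons share 121 bases with C12orf73 and 105 bases with TTC41P on the opposite strand. No label says whether reads were counted by strand, and these neighbours had 4546 and 118 reads in all 15 libraries against 75314 for HSP90B1.

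DNAJB9 and DNAJC3 encode J-domain co-chaperones that drive the ATPase cycle of BiP, and in CDSUM they moved in opposite directions. DNAJB9, at chr7:108569568-108574850 on the plus strand, delivers clients for degradation, represses IRE1 and is a sensitive XBP1 target. It had 10.8, 13.0 and 11.4 CPM in DMSO, 20.5, 20.9 and 23.7 CPM in CDSUM, and 23.4, 20.6 and 28.5 CPM in CDWIN. It had 20.8, 26.1 and 19.0 CPM in CQSUM and 38.9, 18.4 and 19.3 CPM in CQWIN. All 12 exposed libraries were above all 3 DMSO libraries, and CQWIN 1 was the highest of all. The log2 fold changes were 0.89 ± 0.24, 1.04 ± 0.24, 0.90 ± 0.24 and 1.12 ± 0.24 in CDSUM, CDWIN, CQSUM and CQWIN (SE, n = 3; edgeR adjusted p = 0.00651, 0.00259, 0.00887 and 0.00281). Without CQWIN 1, the CQWIN value of DNAJB9 was 0.69 and was still called (edgeR adjusted p = 0.0186). Exons of DNAJB9 share 99 bases with PNPLA8 and 183 bases with THAP5 on the opposite strand, which had 3306 and 2037 reads in all against 5791 for DNAJB9.

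DNAJC3, at chr13:95677139-95794989 on the plus strand, encodes a co-chaperone first known as an inhibitor of eIF2α kinases. It had 14.6, 9.62 and 12.9 CPM in DMSO and 5.09, 5.55 and 7.87 CPM in CDSUM. It had 15.7, 9.06 and 16.3 CPM in CDWIN, 16.8, 13.8 and 16.2 CPM in CQSUM, and 14.9, 17.4 and 17.0 CPM in CQWIN. The 3 CDSUM libraries were the lowest of all 15, the same group that was lowest for HSP90B1. DNAJC3 was 2.01-fold lower in CDSUM than in DMSO (log2 fold change -1.01 ± 0.24, SE, n = 3; edgeR adjusted p = 0.0029). In CDWIN, CQSUM and CQWIN the log2 fold changes were 0.14, 0.33 and 0.40, each with an SE of 0.23, and none was called (edgeR adjusted p = 0.643, 0.294 and 0.204).

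HYOU1 and PDIA4 were lower in every exposure. HYOU1, at chr11:119044189-119057202 on the minus strand, encodes a large Hsp70-like protein that exchanges the nucleotide of BiP. It had 120.0, 101 and 105 CPM in DMSO, 50.5, 57.1 and 64.5 CPM in CDSUM, and 58.2, 54.1 and 50.5 CPM in CDWIN. It had 60.8, 43.0 and 57.9 CPM in CQSUM and 61.0, 66.8 and 88.3 CPM in CQWIN. No exposed library reached the lowest DMSO library, and CQWIN 3 came nearest. HYOU1 fell by a log2 fold change of -0.92 ± 0.17 in CDSUM, -1.0 ± 0.17 in CDWIN, -1.01 ± 0.17 in CQSUM and -0.59 ± 0.16 in CQWIN (SE, n = 3; edgeR adjusted p = 0.000593, 0.000346, 0.000439 and 0.0127). The CQWIN call was lost without DMSO 1 (-0.52, edgeR adjusted p = 0.0632), without CQWIN 1 (-0.49, edgeR adjusted p = 0.0622) and without CQWIN 2 (-0.41, edgeR adjusted p = 0.137).

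PDIA4, at chr7:149003062-149028641 on the minus strand, encodes a protein disulfide isomerase of the ER lumen. The DMSO libraries had 344, 313 and 342 CPM, CDSUM 206, 232 and 208 CPM, and CDWIN 194, 190.0 and 228 CPM. CQSUM had 220.0, 194 and 216 CPM and CQWIN 209, 242 and 274 CPM. All 12 exposed libraries were below all 3 DMSO libraries. PDIA4 fell by a log2 fold change of -0.63 in CDSUM, -0.71 in CDWIN, -0.67 in CQSUM and -0.46 in CQWIN, each with an SE of 0.14 (n = 3; edgeR adjusted p = 0.00187, 0.000937, 0.00202 and 0.0195). The CQWIN call was lost without DMSO 1 (-0.44, edgeR adjusted p = 0.0714), DMSO 3 (-0.44, edgeR adjusted p = 0.0621), CQWIN 1 (-0.37, edgeR adjusted p = 0.087) or CQWIN 2 (-0.33, edgeR adjusted p = 0.157). The CDSUM value of PDIA4 became -0.41 without CQWIN 2 and -0.42 without CQWIN 3, with the call kept, and -0.41 with no filter, with the call lost (edgeR adjusted p = 0.0999). With no filter the CQWIN call was lost as well (-0.45, edgeR adjusted p = 0.0839).

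CALR, at chr19:12938578-12944489 on the plus strand, encodes calreticulin, the soluble lectin that holds newly made glycoproteins and binds calcium. It had the highest level of the 10 genes, with 910.0, 922 and 913 CPM in DMSO and 691, 703 and 635 CPM in CDSUM. It had 713, 661 and 694 CPM in CDWIN, 659, 664 and 658 CPM in CQSUM, and 722, 774 and 655 CPM in CQWIN. The DMSO libraries lay close together, with an SD of 6.42 CPM, and above all exposed libraries. The log2 fold changes were -0.44, -0.41, -0.47 and -0.35 in CDSUM, CDWIN, CQSUM and CQWIN, each with an SE of 0.13 (n = 3; edgeR adjusted p = 0.0116, 0.0181, 0.0111 and 0.0523), so CALR was called lower in the first 3. These calls depended on the scaling. With DESeq2 size factors in the edgeR fit the values of CALR were -0.29 in CDSUM and -0.34 in CDWIN, neither called (edgeR adjusted p = 0.121 and 0.0736), and -0.39 in CQSUM, still called (edgeR adjusted p = 0.0498). With no filter all 3 calls were lost, at -0.22, -0.38 and -0.46 (edgeR adjusted p = 0.523, 0.183 and 0.0913). Libraries of every group enter the scaling, the filter and the shared spread. Without CQWIN 3 the values in CDSUM, CDWIN and CQSUM were -0.22, -0.26 and -0.28 (edgeR adjusted p = 0.105, 0.0685 and 0.0541), and without CQWIN 2 they were also -0.22, -0.26 and -0.28 (edgeR adjusted p = 0.198, 0.146 and 0.125). The CDSUM call of CALR was also lost without CDSUM 3 (-0.39, edgeR adjusted p = 0.0503), and the CDWIN call without DMSO 1 (-0.41, edgeR adjusted p = 0.0523). In CQWIN it was called, at -0.35, with the replicate number as a block (edgeR adjusted p = 0.0414), with a filter of 5 CPM (edgeR adjusted p = 0.0296) and without CDWIN 2 (edgeR adjusted p = 0.0454). It was also called there with the length trend removed (-0.38, edgeR adjusted p = 0.0108) and by DESeq2 (-0.29, DESeq2 adjusted p = 0.0378), and the value was -0.10 without CQWIN 3.

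SDF2L1, at chr22:21642261-21644298 on the plus strand, encodes a small ER protein that works with ER J-domain proteins and is strongly raised by classical ER stress. It had 78.4, 116 and 80.0 CPM in DMSO, 112, 95.0 and 86.2 CPM in CDSUM, and 95.0, 107 and 79.2 CPM in CDWIN. It had 87.7, 106 and 76.9 CPM in CQSUM and 88.0, 83.4 and 50.1 CPM in CQWIN. Every exposed group overlapped DMSO, whose own libraries differed more than the group means. The log2 fold changes ran from -0.31 ± 0.21 in CQWIN to 0.10 ± 0.21 in CDSUM (SE, n = 3; edgeR adjusted p = 0.288 and 0.726). SDF2L1 has the shortest transcript of the 10 genes, and with each library's trend of counts with transcript length removed it was called lower in all 4 exposures. The values were then -0.69, -0.61, -0.42 and -0.60 in CDSUM, CDWIN, CQSUM and CQWIN (edgeR adjusted p = 0.000849, 0.00154, 0.0178 and 0.00241).

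XBP1, at chr22:28794555-28800597 on the minus strand, encodes the transcription factor whose mRNA IRE1 splices, and its own transcription is raised by ATF6. Counts per gene do not separate the spliced from the unspliced mRNA, so they do not read IRE1 activity. XBP1 had 61.1, 66.4 and 55.4 CPM in DMSO, 67.9, 64.6 and 75.1 CPM in CDSUM, and 65.8, 44.4 and 57.2 CPM in CDWIN. It had 59.3, 58.7 and 50.1 CPM in CQSUM and 71.1, 53.6 and 53.8 CPM in CQWIN. All groups overlapped DMSO. The log2 fold change was 0.18 ± 0.16 in CDSUM (SE, n = 3; edgeR adjusted p = 0.36), and in the other groups it ran from -0.13 to -0.03. Without CQWIN 3 the CDSUM value was 0.40 and was called (edgeR adjusted p = 0.0383), and with DMSO and CDSUM scaled alone it was 0.41 (edgeR adjusted p = 0.00488).

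HERPUD1, at chr16:56932048-56944863 on the plus strand, encodes an ER membrane protein that organizes the ubiquitin ligase complex of ER-associated degradation. It had 31.0, 29.6 and 26.9 CPM in DMSO, 27.3, 27.8 and 32.9 CPM in CDSUM, and 29.1, 21.9 and 26.2 CPM in CDWIN. It had 27.5, 26.5 and 26.3 CPM in CQSUM and 34.0, 26.6 and 28.5 CPM in CQWIN. All groups overlapped DMSO. The log2 fold changes ran from -0.18 ± 0.15 in CDWIN (edgeR adjusted p = 0.356) to 0.03 ± 0.15 in CQWIN (SE, n = 3; edgeR adjusted p = 0.916).

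**Figure D2:**
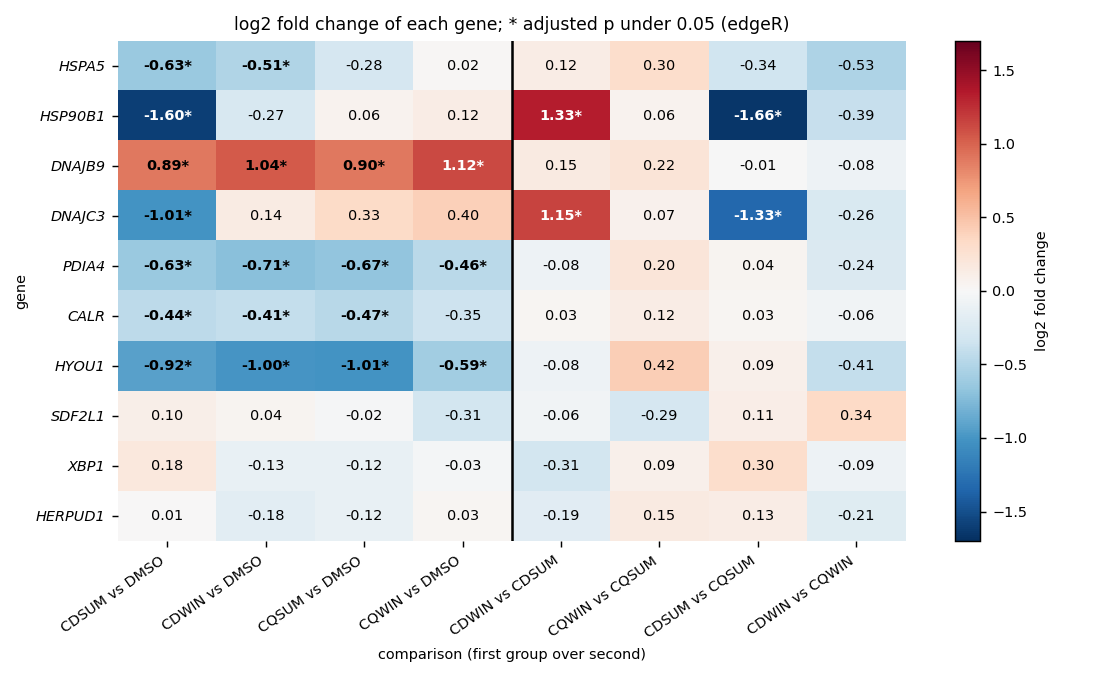
Log2 fold change of each gene in the 4 comparisons with DMSO and the 4 comparisons between PM2.5 groups, first group over second, with an asterisk where the edgeR adjusted p is under 0.05. HSP90B1 and DNAJC3 are called in both comparisons that set CDSUM against another exposure, and no other gene is called right of the line.

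Copies of these genes elsewhere in the genome held few reads. HSP90B2P had 16 reads over the 15 libraries, XBP1P1 had 7, CALR4P had 1, and HSP90B3P was at 0. The antisense genes that overlap exons of CALR and HYOU1 were at 0 in all libraries.

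Between exposures, CDSUM stood apart from the other groups for HSP90B1 and DNAJC3. In CDWIN over CDSUM, 2 of the 10 genes were higher and 0 lower, against 8.17% and 0.244% of all genes. HSP90B1 was 2.51-fold higher in CDWIN than in CDSUM (log2 fold change 1.33 ± 0.26, SE, n = 3; edgeR adjusted p = 0.00322) and DNAJC3 2.22-fold (1.15 ± 0.24; edgeR adjusted p = 0.00482). In CDSUM over CQSUM, 2 were lower and 0 higher, against 13.7% and 0.167% of all genes. HSP90B1 was 3.16-fold lower (-1.66 ± 0.26; edgeR adjusted p = 0.000372) and DNAJC3 2.52-fold lower (-1.33 ± 0.24; edgeR adjusted p = 0.000843). CDSUM libraries enter both comparisons.

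CDWIN 2 was the lowest CDWIN library for 8 of the 10 genes, all but HYOU1 and SDF2L1, and for HSP90B1 and DNAJC3 the distance of CDWIN from CDSUM was smaller in that library. The share of all genes that were lowest in CDWIN 2 is not given here. With CDWIN 2 as the only CDWIN library, CDWIN over CDSUM gave 0.75 for HSP90B1 (edgeR adjusted p = 0.691) and 0.55 for DNAJC3 (edgeR adjusted p = 0.749), and 0 of the 10 genes were called. Without CDWIN 2 the values of HSP90B1 and DNAJC3 were 1.55 and 1.37.

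The other comparisons between exposures gave no call among the 10 genes with edgeR. In CQWIN over CQSUM, 0 of the 10 were called, 1 had an unadjusted p under 0.05, DESeq2 called 0, and 0.0193% of all genes were called. In CDWIN over CQWIN, 0 were called, 2 had an unadjusted p under 0.05, DESeq2 called 1, and 0.0128% of all genes were called. In CDWIN over CQWIN the log2 fold change was -0.53 ± 0.15 for HSPA5 and -0.41 ± 0.16 for HYOU1, and neither passed the test over all genes (edgeR adjusted p = 0.26 and 0.279).

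The interaction asks whether the WIN minus SUM difference depended on the CD or CQ code. It called 0 of the 10 genes with edgeR and 2 with DESeq2, 3 had an unadjusted p under 0.05, and edgeR called 2.02% of all genes. It was 1.27 ± 0.37 for HSP90B1 (edgeR adjusted p = 0.0817) and 1.07 ± 0.33 for DNAJC3 (edgeR adjusted p = 0.11). Without CDWIN 2 both were called, at 1.5 for HSP90B1 (edgeR adjusted p = 0.0173) and 1.30 for DNAJC3 (edgeR adjusted p = 0.0123), and without CQSUM 2 HSP90B1 was called at 1.5 (edgeR adjusted p = 0.0248).

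Libraries differed in how strongly counts rose with transcript length and with GC content, and the lowest libraries of the 10 genes are set beside these trends. The length trend, in log2 per doubling of transcript length, was 0.146 to 0.298 in DMSO, -0.215 to -0.107 in CDSUM, -0.138 to -0.0966 in CDWIN, -0.143 to 0.0728 in CQSUM and -0.149 to 0.276 in CQWIN. The GC trend, in log2 per 10 percentage points, was 0.18 to 0.363 in DMSO, 0.134 to 0.209 in CDSUM, -0.236 to 0.125 in CDWIN, -0.186 to -0.134 in CQSUM and -0.217 to -0.0878 in CQWIN. Within groups, the library with the lowest length trend was also the lowest for DNAJC3 and PDIA4 in 5 of 5 groups. The same held for HSPA5, HSP90B1 and HYOU1 in 4 of 5 groups, for DNAJB9 and HERPUD1 in 2, for CALR and XBP1 in 1, and for SDF2L1 in 0 of 5. The library with the highest GC trend was the lowest for HSP90B1 in 4 of 5 groups. That held for HSPA5, DNAJC3, PDIA4 and CALR in 3, for HYOU1 and SDF2L1 in 2, and for DNAJB9, XBP1 and HERPUD1 in 1. With 3 libraries per group some matches arise for any gene. The share over all genes is not given here, so these counts are a description only.

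**Figure D3:**
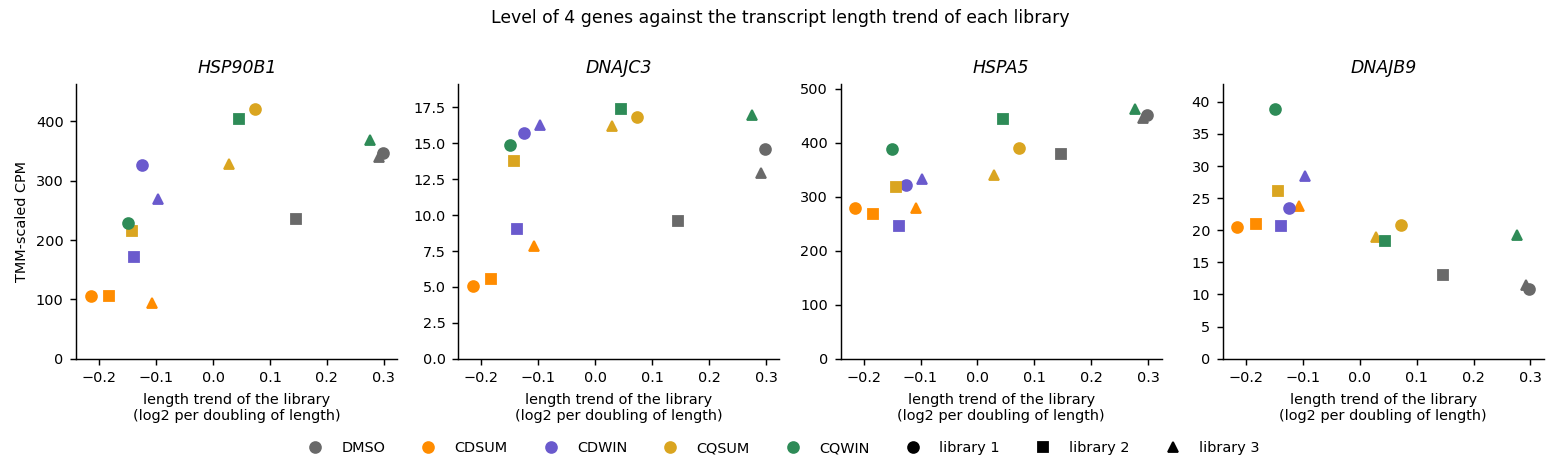
TMM-scaled CPM of HSP90B1, DNAJC3, HSPA5 and DNAJB9 in each library (1 point each, coloured by group) against the library's own trend of counts with transcript length. The 3 CDSUM and 3 CDWIN libraries, all with a length trend under 0, lie at 246 to 333 CPM of HSPA5, and the DMSO libraries, with trends of 0.146 to 0.298, hold the lowest of DNAJB9. CQSUM 2 and CQWIN 1, with length trends of -0.1431 and -0.1495, lie at 319 and 389 CPM of HSPA5.

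When both trends were removed from every library, the fold change of HSP90B1 in CDSUM was as large as before, at -1.65, and HSPA5 was at -0.58, both still called lower. PDIA4 was at -0.65, -0.48, -0.44 and -0.28 in CDSUM, CDWIN, CQSUM and CQWIN, and it was called in the first 3. HYOU1 was smaller, at -0.54, -0.39, -0.49 and -0.18, again with the first 3 called. DNAJC3 in CDSUM moved from -1.01 to -0.47 and was still called. DNAJB9 was at 0.89 and 0.63 in CDSUM and CDWIN, both called, and at 0.43 and 0.67 in CQSUM and CQWIN, where its calls were lost (edgeR adjusted p = 0.206 and 0.0536). CALR in CDSUM was larger, at -0.75. SDF2L1 moved from 0.10 to -0.45 in CDSUM and was called lower there, while its calls with the length trend alone removed were lost in CDWIN, CQSUM and CQWIN, and XBP1 was called lower in CDWIN at -0.38. HSP90B1 in CDWIN over CDSUM was at 1.04 (edgeR adjusted p = 0.0146) and DNAJC3 at 0.63 (edgeR adjusted p = 0.0355). With the GC trend alone removed, DNAJC3 in CDWIN over CDSUM was at 0.65 and not called (edgeR adjusted p = 0.0623). That setting also ended the calls in CQWIN of DNAJB9 (0.79), PDIA4 (-0.33) and HYOU1 (-0.36), with edgeR adjusted p = 0.0549, 0.108 and 0.132. It ended the calls of DNAJB9 in CQSUM (0.56, edgeR adjusted p = 0.142) and of CALR in CDWIN and CQSUM (-0.24 and -0.28, edgeR adjusted p = 0.135 and 0.125). Whether the trends come from the cells or from the libraries was not tested.

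**Figure D4:**
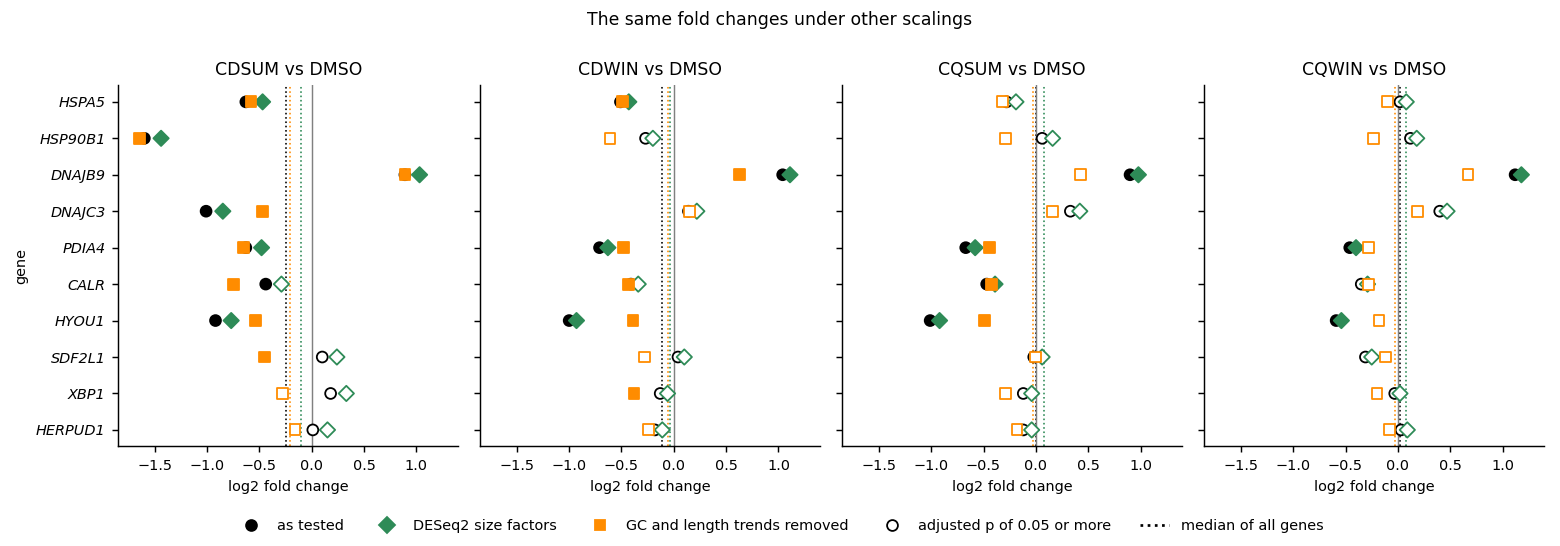
Log2 fold change over DMSO of each gene as tested (circles), with DESeq2 size factors (diamonds) and with GC and length trends removed (squares), filled where the edgeR adjusted p is under 0.05, with dotted lines at the median of all genes. HSP90B1 in CDSUM stays at -1.60, -1.44 and -1.65, while SDF2L1 in CDSUM changes side from 0.10 to -0.45.

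Levels can be set between genes only per length, and the deposited FPKM values were used for that. In DMSO the order was CALR at 315 ± 14.2 FPKM (SD, n = 3), HSPA5 at 102 ± 5.95, PDIA4 at 94.8 ± 1.48, SDF2L1 at 78.1 ± 21.2 and HSP90B1 at 60.9 ± 10.4 FPKM. XBP1 at 18.9 ± 2.35, HYOU1 at 13.2 ± 0.902, HERPUD1 at 5.29 ± 0.443, DNAJB9 at 3.88 ± 0.535 and DNAJC3 at 2.06 ± 0.36 FPKM followed. PDIA4 and SDF2L1 are neighbours in that order that do not differ beyond the spread of SDF2L1, whose libraries had 65.1, 103 and 66.6 FPKM, and SDF2L1 and HSP90B1 also overlap within their SDs. The HSPA5 libraries, at 106, 94.9 and 105 FPKM, overlapped those of PDIA4, at 95.8, 93.1 and 95.5 FPKM, and the highest of SDF2L1. In CDSUM, HSP90B1 was at 22.4 ± 1.82 FPKM, about the level of XBP1 there, 23.7 ± 1.46 FPKM, and DNAJB9 at 7.93 ± 0.509 was above HERPUD1 at 5.88 ± 0.521 FPKM.

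Other genes that serve the ER were counted from fixed lists, and their directions were mixed. Of 25 further folding factors, 5 rose and 11 fell in CDSUM, 5 and 8 in CDWIN, 4 and 6 in CQSUM, and 3 and 5 in CQWIN, with medians of -0.33, -0.08, 0.15 and 0.23. The shares of all genes to set these and the following counts against are 15.3% higher and 31.2% lower in CDSUM, 18.4% and 23.3% in CDWIN, 13.7% and 18.8% in CQSUM, and 11.6% and 15.8% in CQWIN. The counts of folding factors in CDWIN, CQSUM and CQWIN are near those shares. With both trends removed the count in CDSUM was 1 risen and 9 fallen. With 1 library left out in turn, 0 to 12 folding factors rose and 3 to 7 fell in CQSUM. In CQWIN 1 to 14 then rose and 2 to 5 fell. The pair of glucosidase II subunits that trim glycoproteins fell in all 4 exposures, GANAB from 525 CPM in DMSO to 258 in CDSUM (log2 fold change -1.03 ± 0.18; edgeR adjusted p = 0.000512) and PRKCSH from 190.0 to 104 CPM (-0.87 ± 0.17; edgeR adjusted p = 0.000876). The fall of PRKCSH in CQWIN was not called with both trends removed (-0.41, edgeR adjusted p = 0.0619), and its exons overlap CCDC151 on the other strand. UGGT1, which re-glucosylates misfolded glycoproteins so that calreticulin binds them again, fell in CDSUM (-1.45 ± 0.24; edgeR adjusted p = 0.000418) and CDWIN (-1.0 ± 0.24; edgeR adjusted p = 0.00321).

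Of 20 genes of ER-associated degradation, 19 were tested. In CDSUM 4 rose and 6 fell, in CDWIN 6 and 4, in CQSUM 4 and 5, and in CQWIN 4 and 5, with medians of -0.09, -0.20, 0.07 and 0.17. With both trends removed 0 rose in CQSUM and in CQWIN. Leaving out 1 library in turn, 1 to 7 rose and 2 to 5 fell in CQWIN. SELENOK, an ER membrane selenoprotein, rose from 24.4 to 63.3 CPM in CDSUM (1.38 ± 0.21; edgeR adjusted p = 0.000254) and to 56.1 CPM in CDWIN (1.20 ± 0.21; edgeR adjusted p = 0.000514). NPLOC4, a cofactor of the p97 segregase that pulls proteins from the membrane, fell from 283 to 177 CPM in CDSUM (-0.68 ± 0.16; edgeR adjusted p = 0.00307), though not when the length trend alone was removed (-0.24, edgeR adjusted p = 0.192). SYVN1, the ubiquitin ligase that HERPUD1 works with, was at -1.05 ± 0.20 in CDSUM (edgeR adjusted p = 0.000881). Its 5353 reads are uncertain, because its exons share 398 bases on the same strand with the ribosomal gene FAU, which had 239974 reads.

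Of 25 genes of protein entry into the ER, 8 rose and 9 fell in CDSUM, 11 and 3 in CDWIN, 10 and 3 in CQSUM, and 7 and 1 in CQWIN, with medians of 0.16, 0.29, 0.45 and 0.40. With both trends removed only 2 rose in CQSUM and 2 in CQWIN. With 1 library left out in turn, 3 to 17 rose and 1 to 3 fell in CQSUM. In CQWIN 2 to 16 then rose and 0 to 1 fell. SEC61G, the small subunit of the translocation channel, rose from 134 to 365 CPM in CDSUM (1.45 ± 0.23; edgeR adjusted p = 0.000328) and to 344 CPM in CDWIN (1.36 ± 0.23; edgeR adjusted p = 0.000419). SEC11A, a subunit of signal peptidase, rose from 267 to 590.0 CPM in CDSUM (1.14 ± 0.21; edgeR adjusted p = 0.000676). OSTC, a subunit of the oligosaccharyltransferase, rose from 58.3 to 141 CPM in CDSUM (1.27 ± 0.24; edgeR adjusted p = 0.000821), while in CQSUM and CQWIN its values turned from 0.82 and 0.69 to -0.15 and -0.16 with both trends removed.

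Of 19 genes of ER exit and retrieval, 2 rose and 8 fell in CDSUM, 5 and 6 in CDWIN, 3 and 4 in CQSUM, and 4 and 3 in CQWIN, with medians of -0.09, -0.08, 0.16 and 0.16. With DESeq2 size factors the CDSUM count was 6 risen and 5 fallen. Leaving out 1 library in turn, 2 to 7 rose and 5 to 8 fell in CDSUM. In CQSUM 1 to 9 then rose and 2 to 4 fell. KDELR3, a receptor that returns chaperones such as BiP from the Golgi, rose from 15.8 to 30.1 CPM in CDSUM (0.93 ± 0.21; edgeR adjusted p = 0.00217), but not with both trends removed (0.35, edgeR adjusted p = 0.0604). SAR1B, the GTPase that starts the COPII coat, rose from 32.2 to 65.4 CPM in CDSUM (1.02 ± 0.22; edgeR adjusted p = 0.00141), and its exons share 385 bases with SEC24A on the other strand. SEC24C, a cargo adaptor of that coat, fell from 50.6 to 27.8 CPM in CDWIN (-0.87 ± 0.19; edgeR adjusted p = 0.00183).

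**Figure D5:**
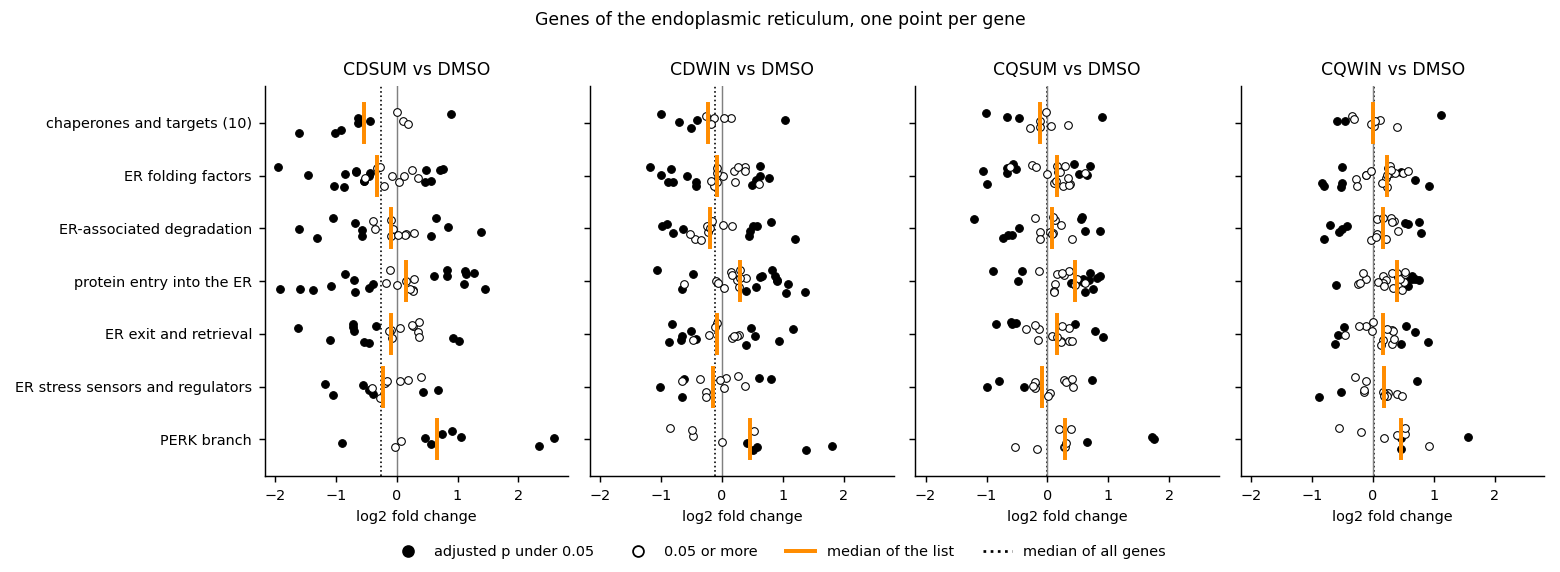
Log2 fold change over DMSO of the genes of each list, 1 point per gene, filled where the edgeR adjusted p is under 0.05, with the list's median as a vertical bar and the median of all genes as a dotted line. Of the 7 lists drawn, the PERK branch has the highest median in CDSUM, 0.66, and the chaperones and targets the lowest, -0.53.

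Of the 3 sensors, ATF6 rose as tested, though not under every setting, while ERN1 did not pass the test in any exposure. ATF6 had 35.4 CPM in DMSO and 61.9 CPM in CDWIN (0.81 ± 0.16; edgeR adjusted p = 0.00106), 58.7 CPM in CQSUM (0.73 ± 0.16; edgeR adjusted p = 0.00301), and 58.3 CPM in CQWIN (0.72 ± 0.16; edgeR adjusted p = 0.00377). With the GC trend alone removed, 0 of the 14 sensors and regulators rose in CQSUM or CQWIN, so ATF6 was not called higher there. In CQWIN its call was also lost with both trends removed. In CDSUM ATF6 was at 48.2 CPM (0.44 ± 0.16; edgeR adjusted p = 0.0317), a call that was lost without any 1 of the DMSO or CDSUM libraries (edgeR adjusted p from 0.0545 without CDSUM 3 to 0.0971 without DMSO 1, values 0.42 to 0.47). ERN1 ran from -0.27 in CDWIN to 0.25 in CQWIN, each with an SE of 0.25 (edgeR adjusted p = 0.395 and 0.476). EIF2AK3 fell in CDSUM from 7.45 to 3.31 CPM (-1.17 ± 0.28; edgeR adjusted p = 0.00305) and was at -0.66, -0.21 and 0.17 in CDWIN, CQSUM and CQWIN, where it was not called. ATF6B, a paralog of ATF6, had log2 fold changes of -0.66 ± 0.18 in CDWIN (edgeR adjusted p = 0.00792) and -0.80 ± 0.18 in CQSUM (edgeR adjusted p = 0.00374), neither called with both trends removed. WFS1, an ER membrane protein that restrains ATF6, fell from 43.9 to 21.1 CPM in CDSUM (-1.05 ± 0.21; edgeR adjusted p = 0.000924) and to 21.7 CPM in CDWIN (-1.02 ± 0.21; edgeR adjusted p = 0.00113). Of all 14 sensors and regulators, 2 rose and 5 fell in CDSUM, 2 and 3 in CDWIN, 1 and 3 in CQSUM, and 1 and 2 in CQWIN, with medians of -0.23, -0.15, -0.09 and 0.17. With both trends removed 1 rose and 0 fell in CQSUM, and 0 and 0 in CQWIN. With 1 library left out in turn, 1 to 4 rose and 2 to 5 fell in CDSUM. In CQWIN 1 to 5 then rose and 1 to 2 fell.

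More genes of the list named PERK branch rose than fell in every exposure. RNA counts do not read PERK activity, and EIF2AK3, the gene of PERK, was called lower in CDSUM. Whether PERK drove these changes was not tested. Of its 10 genes, 7 rose and 1 fell in CDSUM, 5 and 0 in CDWIN, 3 and 0 in CQSUM, and 3 and 0 in CQWIN, with medians of 0.66, 0.46, 0.29 and 0.46. Of all genes 15.3%, 18.4%, 13.7% and 11.6% rose in these comparisons. With both trends removed 6 of the PERK branch rose and 0 fell in each of the 4 exposures. With 1 library left out in turn, 4 to 7 rose in CDSUM, 2 to 6 in CDWIN, 3 to 6 in CQSUM and 1 to 6 in CQWIN. In CDWIN 0 to 1 then fell. The difference between this list and the chaperones was not tested. DDIT3, which encodes the transcription factor CHOP, rose from 3.19 CPM in DMSO to 16.0 CPM in CDSUM (2.33 ± 0.32; edgeR adjusted p = 0.000121), 11.2 CPM in CDWIN (1.81 ± 0.32; edgeR adjusted p = 0.000512), 10.5 CPM in CQSUM (1.71 ± 0.32; edgeR adjusted p = 0.00093) and 9.4 CPM in CQWIN (1.56 ± 0.32; edgeR adjusted p = 0.00194). Its exons share 355 bases with MARS on the other strand, which had 43639 reads in all against 2744 for DDIT3. ATF3, a stress-induced transcription factor downstream of ATF4, rose from 1.95 to 11.7 CPM in CDSUM (2.59 ± 0.35; edgeR adjusted p = 0.000119). PPP1R15A, which directs a phosphatase to eIF2α, rose from 30.7 to 64.2 CPM in CDSUM (1.06 ± 0.17; edgeR adjusted p = 0.00034). ATF4 itself rose from 300.0 to 504 CPM in CDSUM (0.75 ± 0.16; edgeR adjusted p = 0.00161), with values of 0.51, 0.38 and 0.19 in CDWIN, CQSUM and CQWIN. The CDWIN call of ATF4 (edgeR adjusted p = 0.0179) was lost without DMSO 1, DMSO 3 or CDWIN 1 (edgeR adjusted p = 0.0759, 0.0557 and 0.0648, values 0.46, 0.50 and 0.47).

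The profile of HSPA5 and that of HSP90B1 across the 15 libraries were set against 10142 genes with at least 5 CPM on average, by the root mean square difference of centred log2 CPM. The 5 genes nearest to HSPA5 were ATP6V0A2 (0.0906), PPFIA1 (0.0931), IPO9 (0.0967), DCAF1 (0.0971) and SH2D4A (0.0998), where a gene that did not vary would lie at 0.29. The 5 nearest to HSP90B1 were DNM1L (0.0896), ADAM10 (0.112), EFR3A (0.123), NR3C1 (0.123) and CAND1 (0.127), where a gene that did not vary would lie at 0.706. The 10 genes described here were left out of this search, so none of them could appear among the nearest. Among the 10, the nearest pairs were XBP1 and HERPUD1 (0.109), PDIA4 and CALR (0.162), and PDIA4 and HYOU1 (0.189), and HSPA5 and HSP90B1 differed by 0.505. The libraries share their group structure and their length and GC trends, so nearness is a description only.

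The authors' deposited table, at its own adjusted p under 0.05, called 2 of the 10 genes higher and 5 lower in CDSUM, 1 and 4 in CDWIN, 1 and 3 in CQSUM, and 1 and 1 in CQWIN. In the authors' deposited table XBP1 was called higher in CDSUM than in DMSO and in CQSUM, with log2 fold changes of 0.41 and 0.36, and CALR, at -0.20 in CDSUM, was not called. The authors' deposited table gave -1.36 for HSP90B1 in CDSUM, and it called HSP90B1 and DNAJC3 in CDWIN over CDSUM and in CDSUM over CQSUM.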

How the data were processed

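Total RNA of A549 cells was made into 15 mRNA libraries, and 2 different kits are named in the labels. The reads were processed by the authors. No source used here names the aligner or the counter. The submitters' processing notes name the mouse builds GRCm38 and mm10, but 58724 of the 58735 gene IDs of the deposited table are human with the start and end of GENCODE 29, on GRCh38, so coordinates are read as GRCh38. The authors deposited raw read counts per gene, which were used for every test here. The authors also deposited FPKM values per library, used here only to order levels between genes. Their comparison table holds, per the file headers, log2 fold changes, p-values and adjusted p-values. The test behind that table is not stated, and its group means were not used.

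Counts of 15565 genes that passed filterByExpr (0.0838% of reads removed) were scaled by TMM and fitted with edgeR 4.0.16 (R 4.3.3) in 1 quasi-likelihood model over all 15 libraries with 10 residual degrees of freedom, where the biological coefficient of variation was 20.5%. P-values were adjusted by Benjamini-Hochberg over all tested genes, and the threshold was 0.05. An SE is the fitted log2 fold change divided by the square root of its F value. Trends with GC content and length were fitted per library by natural splines with 6 degrees of freedom and removed as offsets. The fits were tested on simulated data. Motifs were searched in RefSeq promoters, 250 bases before to 50 after the start.

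All 10 genes are named. Of each other list 3 genes are named, among those called in at least 1 of the 4 DMSO comparisons. They have the largest mean log2 fold change over these 4, taken without its sign after averaging. Also named are ERN1, EIF2AK3, ATF6, ATF4 and DDIT3, and the 5 genes most like HSPA5 and HSP90B1. The genes and lists were chosen with earlier results of these data known. The alternatives were DESeq2 1.42.0 and its size factors, no filter, a filter of 5 CPM in 3 libraries, the replicate number as a block, fits of the compared groups only, GC and length trends removed, and libraries left out. No 2 libraries of a group agreed within sampling noise.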

Additional observations from a re-analysis of the deposited data

How the results depend on the processing

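The signs of the log2 fold changes of SDF2L1, XBP1, HERPUD1 and ERN1 over DMSO depended on the setting. So did those of HSPA5, HSP90B1, DNAJC3, OSTC and EIF2AK3 in the exposures given below. The counts for CQWIN over CQSUM, CDWIN over CQWIN and the interaction depended on the setting as well. Each group has 3 libraries, which limits what can be called, and the lowest count among the 10 genes was 85 reads. The cause of the changes below was not tested, except that fits with fewer libraries have fewer degrees of freedom.

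Same-numbered libraries did not deviate together across all groups: 11 of 30 pairs correlated above 0.1 (range -0.4141 to 0.3948), though all 3 pairs of DMSO and CQSUM did (0.115 to 0.3948), and 5 of 15 libraries correlated best with their own number. With the number as a replicate block, 7, 5, 4, 4 and 2 of the 10 genes were called in CDSUM, CDWIN, CQSUM and CQWIN over DMSO and in CDWIN over CDSUM, then 0, 2, 0 and 0 in CQWIN over CQSUM, CDSUM over CQSUM, CDWIN over CQWIN and the interaction. In CQSUM over DMSO the block called 5382 genes of the whole table, against 5061 without it. Among the 10 genes it changed the call of CALR in CQWIN over DMSO (-0.35, edgeR adjusted p = 0.0414) and no other call. Outside them UGGT1 in CQSUM (-0.62, edgeR adjusted p = 0.0205) and EIF2AK3 in CDWIN (-0.66, edgeR adjusted p = 0.0453) became called, and no other named gene changed its call. It called 4 genes of the whole table in CDWIN over CQWIN, against 2 without it.

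Some settings keep CDWIN 2 alone of its group. Of the 10 genes, 4 were called in CDSUM over DMSO with no filter and 3 in CDWIN over DMSO with CDWIN 2 alone, where the lone library is assumed to vary like the other groups. In CQWIN over DMSO, 1 was called with the compared groups only, 0 with the GC trend removed, 5 with the length trend removed and 0 with both removed. In CDWIN over CDSUM, 1 was called with the GC trend removed and 0 with CDWIN 2 alone. DESeq2 called 1 in CDWIN over CQWIN. The interaction called 1 with no filter, 2 without CDWIN 2 and CQWIN 3 together, and 2 with DESeq2.

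Of all genes, 1488 were called in CDWIN over DMSO with CDWIN 2 alone, and 2615 in CQSUM over DMSO with both trends removed. In CQWIN over DMSO, 2249 were called with the compared groups only, 2367 with the GC trend removed and 2443 with both removed. In CDWIN over CDSUM the count was 579 with the GC trend removed, 2187 without CDWIN 2 and CQWIN 3, and 2 with CDWIN 2 alone. In CQWIN over CQSUM it was 1 with DESeq2 size factors, 42 with no filter, 0 with the compared groups only, 7, 5 and 10 with the GC, the length or both trends removed, and 11 with DESeq2. In CDSUM over CQSUM it was 1382 with the GC trend removed. In CDWIN over CQWIN it was 1 with DESeq2 size factors, 522 with no filter, 0 with the compared groups only, 6 with both trends removed, 0 without CDWIN 2 and CQWIN 3, 1 with CDWIN 2 alone, and 42 with DESeq2. The interaction called 569 with no filter, 48 with the compared groups only, 87 and 558 with the GC or length trend removed, 896 without CDWIN 2 and CQWIN 3, 0 with CDWIN 2 alone, and 544 with DESeq2.

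The following log2 fold changes over DMSO changed sign. With the GC trend removed, CDSUM gave -0.19 for HERPUD1 and CDWIN gave -0.11 for DNAJC3. CQSUM then gave -0.24 for HSP90B1, -0.022 for DNAJC3 and 0.40 for SDF2L1, and CQWIN gave -0.19 for HSPA5, -0.20 for HSP90B1, 0.20 for SDF2L1, -0.10 for HERPUD1 and -0.09 for EIF2AK3. With the length trend removed, SDF2L1 was at -0.69 in CDSUM and -0.61 in CDWIN, XBP1 at -0.12 in CDSUM, and ERN1 at 0.39, 0.13 and 0.036 in CDSUM, CDWIN and CQSUM. With both removed, SDF2L1 was at -0.45 and -0.28 in CDSUM and CDWIN, XBP1 at -0.28 and HERPUD1 at -0.16 in CDSUM, and ERN1 at 0.31, 0.36 and 0.31 in CDSUM, CDWIN and CQSUM. Both removed also gave -0.29 for HSP90B1 and -0.15 for OSTC in CQSUM, and -0.10 for HSPA5, -0.23 for HSP90B1, -0.083 for HERPUD1 and -0.16 for OSTC in CQWIN. Without CDWIN 2 and CQWIN 3 together, CDWIN gave -0.065 for SDF2L1 and 0.015 for XBP1, and CQWIN gave -0.032 for HSPA5, 0.035 for XBP1, -0.032 for ERN1 and -0.059 for EIF2AK3. With CDWIN 2 alone, DNAJC3 was at -0.45 in CDWIN. DESeq2 size factors gave 0.057 for SDF2L1 in CQSUM and 0.024 for XBP1 in CQWIN, and DESeq2 gave 0.056 and 0.022. HERPUD1 was at -0.0029 in CDSUM with the 5 CPM filter, and ERN1 there at 0.023 with no filter and 0.0398 with the compared groups only.

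With 1 library left out in turn, the number of the 10 genes called ran from 3 to 5 in CDWIN over DMSO, 1 to 4 in CQWIN over DMSO, 0 to 1 in CDWIN over CQWIN and 0 to 2 in the interaction. The number of all genes called ran from 3049 to 6084 in CQSUM over DMSO, 2511 to 6102 in CQWIN over DMSO, 554 to 1866 in CDWIN over CDSUM, 0 to 11 in CQWIN over CQSUM, 0 to 1885 in CDWIN over CQWIN and 0 to 883 in the interaction. The values over DMSO that crossed 0 were, in CDSUM, SDF2L1 (-0.0092 to 0.31), HERPUD1 (-0.081 to 0.22) and ERN1 (-0.34 to 0.026), and in CDWIN, DNAJC3 (-0.0076 to 0.37), SDF2L1 (-0.065 to 0.24) and XBP1 (-0.26 to 0.028). In CQSUM they were HSP90B1 (-0.18 to 0.29), SDF2L1 (-0.15 to 0.19), XBP1 (-0.19 to 0.072), HERPUD1 (-0.18 to 0.072) and ERN1 (-0.34 to 0.0199), and in CQWIN HSPA5 (-0.056 to 0.15), HSP90B1 (-0.041 to 0.33), SDF2L1 (-0.45 to 0.093), XBP1 (-0.18 to 0.21), HERPUD1 (-0.081 to 0.24) and EIF2AK3 (-0.0155 to 0.38).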
